A study of Homo sapiens with 6 samples.

Results

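LTR5_Hs is the youngest group of long terminal repeats (LTRs) of HERV-K (HML-2), the endogenous retrovirus that entered the primate germ line most recently. The 720177 LTR elements of the deposited tables held 630 LTR5_Hs elements. An element was called proviral where an internal sequence of the virus (HERVK-int, 245 elements) lay on the same chromosome and strand within 1000 bp, and solo otherwise. By this rule 75 elements (11.9%) were proviral and 555 were solo. Of the proviral elements, 33 touched the internal sequence and 37 were within 100 bp of it. The farthest was 839 bp away and listed at 0 TPM in every library. The nearest solo element, chr1:150632808-150632885, was 1764 bp from HERVK-int of its strand. It is only 78 bp long and had 1, 1 and 2 reads (17.1, 14.1 and 24.6 TPM) in 3 libraries and 0 in the others. On its downstream side it touches HERVK-int of the other strand, which the rule does not count. The level of the LTR5_Hs elements was read in 6 libraries of total RNA from 4 cell lines of atypical teratoid rhabdoid tumor (AT/RT). AT/RT is a malignant brain tumor of early childhood that is marked by loss of SMARCB1, a subunit of the SWI/SNF chromatin remodeling complex. The lines CHLA 02 and CHLA 05 were sequenced once, and the lines CHLA 04 and CHLA 06 as 2 technical replicates each. All lines were cultured in DMEM:F12 with EGF, basic FGF and B-27, none carried a treatment or transgene, and no control cells were included. Each line was 1 biological sample, so no test between lines was made, and spread given below is between technical replicates.

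A provirus carries an identical LTR at each end when it inserts. The LTR upstream of the genes, at the 5′ end, supplies the promoter, and the one at the 3′ end supplies the polyadenylation signal. Recombination between the LTRs of a provirus deletes the internal sequence and leaves a solo LTR, which keeps promoter, enhancer and polyadenylation sequences but has no viral gene to transcribe. Reads on an LTR can therefore come from a transcript that starts there, ends there or runs through it from a neighboring promoter, and the deposited values do not separate these cases.

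Insertion leaves a short repeat of host bases on either side of the inserted unit, and this repeat was looked for in the GRCh38 sequence to check the classes. A direct repeat of 5 or 6 bases flanked 345 of 555 solo elements (62.2%), of which 231 had 6 bases and 114 had 5. No proviral element had such a repeat on its own 2 ends (0 of 75). Of 21 proviruses with 1 LTR5_Hs element on each side, 15 (71.4%) had the repeat around the whole provirus. The ends of the solo element in ZNF808 and of the provirus on chromosome 3, the most abundant unit of each class, show the difference. Bases in capitals are the repeat, and the lower case bases inside it are the first or last of the element.
Solo, ZNF808, upstream end, chr19:52558691-52558720, plus strand: tGGAATtgtggggaaaagagagagatcaga
Solo, ZNF808, downstream end, chr19:52559638-52559667, plus strand: gtggaggggcaggccaccccttcaGGAATg
Provirus, chromosome 3, upstream end of the 5′ LTR, chr3:101691887-101691916, plus strand: tGAGGTtgtggggaaaagcaagagagatca
Provirus, chromosome 3, downstream end of the 3′ LTR, chr3:101700992-101701021, plus strand: gtggaggggcaacccatcccttcaGAGGTg

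Both strands were searched over the whole element for 5 motifs in the 464 solo and 62 proviral elements of at least 900 bp, and in 4380 other LTR elements of 900 to 1000 bp. CACGTG, the E-box bound by MYC, was in 61.4% of solo, 72.6% of proviral and 11.1% of the other elements. TATAAA, the TATA box, was in 56.7% of solo, 79.0% of proviral and 59.0% of the others. ACAAAG, a core of SOX binding sites, was in 99.6% of solo, every proviral and 60.8% of the other elements, and AATAAA, the polyadenylation signal, was in 93.5%, 95.2% and 76.7%. The octamer ATGCAAAT matched no solo or proviral element and 7.74% of the others. A match describes letters and not a bound site. Only exact matches were sought, so the lack of a match does not show that a binding site is absent.

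The classes had the same median length, 965 bp, and 83.6% of solo and 82.7% of proviral elements had at least 900 bp. Against the genes of the transcript tables, 88 solo elements (15.9%) lay in a gene of their own strand, 145 (26.1%) in a gene of the other strand only, and 322 (58.0%) outside genes. Of the proviral elements, 16 (21.3%), 26 (34.7%) and 33 (44.0%) did. The median identity to the most similar other LTR5_Hs element of at least 900 bp was 98.3% for proviral and 96.5% for solo elements. Of the 62 proviral elements, 39 had another such element in the same provirus, whose LTRs are identical at insertion. With elements of the same provirus left out the proviral median was 98.0%. In the median proviral element, 27.1% of the stretches of 125 bases, the length of a read, also occurred in another LTR5 element of any group, partners included, against 8.09% in the median solo element. Reads from such stretches cannot be placed by sequence, and how the mapping placed them is not given in the sources used here.

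The first question was whether LTRs still attached to a provirus gave more RNA than LTRs left alone. Averaged over each class, they did not differ by more than the lines did among themselves, and the direction was not the same in every line. Levels are in TPM, a measure of transcript abundance that is per length and scaled to a common sum over the LTR elements of a library. Mean TPM of proviral and solo elements was 4.17 and 3.45 in CHLA 02. It was 4.29 and 3.95 in the first technical replicate of CHLA 04 but 2.83 and 3.67 in the other. In CHLA 05 it was 4.40 and 4.57. In CHLA 06 it was 4.10 and 3.62, and 4.64 and 3.57. The proviral class was thus the higher one in CHLA 02 and both libraries of CHLA 06, the lower one in CHLA 05, and on either side in CHLA 04. The log2 ratio averaged 0.10 ± 0.21 (SD, n = 4 cell lines), with 2 lines above 0 and 2 below (two-sided exact sign-flip permutation test over cell lines, p = 0.5, adjusted p = 0.5 over 3 tests). With 4 lines the smallest p this test can give is 0.13. The ratio turned to -0.01 without the most read element of each class, and it grew to 1.24 among elements outside genes (p = 0.13 by the same exact test). There, mean TPM of proviral against solo elements was 5.29 against 1.91 (CHLA 02), 4.58 ± 1.25 against 2.20 ± 0.387 (CHLA 04, SD, n = 2), 4.08 against 2.51 (CHLA 05) and 7.0 ± 0.543 against 2.12 ± 0.0519 (CHLA 06, SD, n = 2). Of the 33 proviral elements outside genes, 4 held 97.2% of their reads. In bulk RNA, a lower level in every cell and a lower share of cells with the RNA cannot be told apart.

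**Figure D1:**
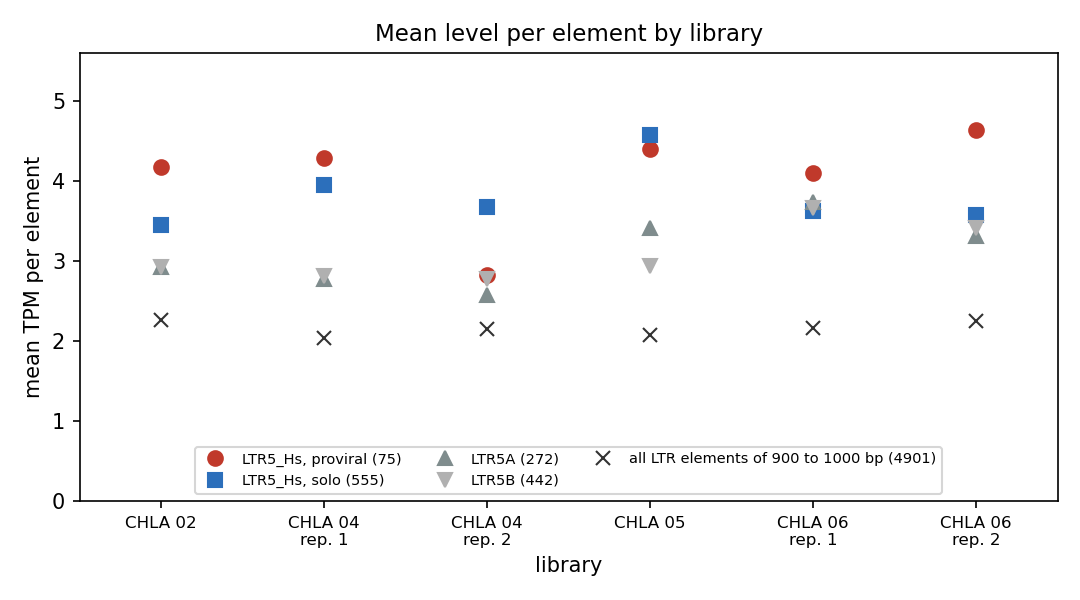
Mean TPM per element in each of the 6 libraries for proviral and solo LTR5_Hs, the older groups LTR5A and LTR5B, and all LTR elements of 900 to 1000 bp. Proviral points lie above solo points in 4 of 6 libraries, and both classes lie above the length-matched elements in every library.

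Both classes were above LTR elements of 900 to 1000 bp as a whole, whose mean was 2.08 to 2.26 TPM in the 4 lines, and above the mean of all LTR elements, 1.39 TPM in each line. The older groups LTR5A and LTR5B averaged 2.68 to 3.53 TPM and 2.79 to 3.54 TPM. HERVK-int elements averaged 2.81 to 4.90 TPM.

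Recovered reads, which are not divided by length, were also compared. LTR5_Hs elements had 1619 to 2415 reads in a library, out of 355302 to 511408 on LTR elements. Proviral elements took 295 of 2003 LTR5_Hs reads in CHLA 02, or 14.7% (95% Wilson interval 13.2 to 16.3). For CHLA 04 the shares were 13.9% (12.3 to 15.7) and 9.88% (8.70 to 11.2). The CHLA 05 library gave 11.6% (10.4 to 13.0). Those of CHLA 06 gave 13.5% (12.1 to 15.1) and 15.5% (14.0 to 17.0). The intervals cover counting error only. The mean over the lines, 13.2%, stood beside 11.9% of the elements, and the intervals of the CHLA 04 replicates did not overlap each other.

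Most LTR5_Hs elements of either class were silent at this depth, where 1 read on 1000 bp was worth 0.899 to 1.34 TPM. At least 1 read in at least 1 library was found on 34 of 75 proviral elements (45.3%, Wilson interval 34.6 to 56.6) and 209 of 555 solo elements (37.7%, 33.7 to 41.8). The share was 16.3% over all LTR elements and 28.9% over those of 900 to 1000 bp. With at least 5 reads in a library it was 18.7% of proviral and 14.2% of solo elements. The same count gave 4.81% of all LTR elements and 11.3% of those of 900 to 1000 bp. A read in all 6 libraries was found on 8 proviral (10.7%) and 60 solo (10.8%) elements. That share was 2.62% over all LTR elements and 6.92% over those of 900 to 1000 bp. No library had a read on 41 proviral and 346 solo elements, and 9 and 63 had a single read in total.

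The reads of both classes were concentrated in few elements, and more so in the proviral class. Over the 6 libraries, 4 proviral elements held 50% of 1634 reads and 8 held 90% of them. Among solo elements, 14 were needed for 50% of 10836 reads and 51 for 90%. The 10 most read elements of a library took 94.4% to 99.3% of the proviral and 43.2% to 49.1% of the solo reads. The classes differ in size, so these shares describe each class and were not tested.

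**Figure D2:**
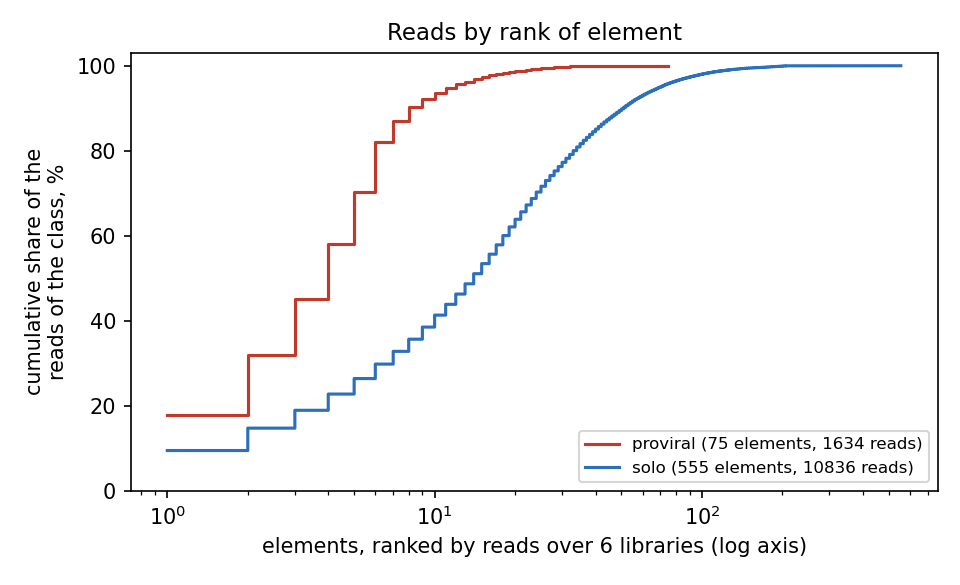
Cumulative share of the reads of each class (vertical axis, percent) over elements ranked by their reads in the 6 libraries together (horizontal axis, log scale). The proviral curve passes 50% at the fourth element and the solo curve at the fourteenth.

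Over all proviral elements, those at the 3′ end averaged more RNA than those at the 5′ end, but within proviruses that keep an LTR5_Hs element on both sides this was not so in every line. The 38 elements downstream of their HERVK-int averaged 6.55 TPM in CHLA 02, and the 37 upstream of it averaged 1.72. The values were 6.12 against 2.40 and 4.21 against 1.41 (CHLA 04), 7.29 against 1.42 (CHLA 05), and 5.65 against 2.51 and 6.98 against 2.24 (CHLA 06). The 3′ side was the higher one in all 6 libraries, by 2.26 to 5.14 times. The log2 ratio of 5′ to 3′ averaged -1.79 ± 0.45 (SD, n = 4 cell lines), below 0 in 4 of 4 lines (two-sided exact sign-flip permutation test, p = 0.13, the smallest it can give, adjusted p = 0.188 over 3 tests). Without the most read element of each side the ratio was -3.31. These means include 3′ LTRs that have no 5′ partner under the distance and strand rule. In the 23 proviruses with an element on both sides, the 5′ and 3′ means were 2.40 against 4.45 TPM (CHLA 02), 3.56 against 3.12 and 2.01 against 1.96 TPM (CHLA 04), 2.10 against 5.77 TPM (CHLA 05), and 3.05 against 3.79 and 3.05 against 6.19 TPM (CHLA 06). The 3′ side was thus the higher one in 3 lines and slightly the lower one in both libraries of CHLA 04. In CHLA 04 the 5′ LTR of the chromosome 3 provirus alone held 53 of 64 and 35 of 54 reads of all 5′ elements. The comparison was not repeated without this provirus, so the CHLA 04 value rests largely on that LTR. The ratio averaged -0.73 over the lines (p = 0.25 by the same exact test). Of the 10 proviral elements with the highest mean TPM, 8 were 3′ LTRs.

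The highest proviral element was a 5′ LTR, chr3:101691893-101692861 on the plus strand, outside genes. It stood at 41.0 TPM (CHLA 02), 73.0 and 32.5 TPM (CHLA 04), 36.3 TPM (CHLA 05) and 68.7 and 64.3 TPM (CHLA 06). Its 3′ partner, chr3:101700047-101701015, stood at 45.1, 41.3, 22.3, 14.8, 45.5 and 46.5 TPM in the same order of libraries. The internal sequence between them was at 84.2, 42.0, 34.0, 42.6, 82.6 and 82.7 TPM. All 3 parts thus had RNA in every library, between 14.8 and 84.2 TPM, and the 5′ LTR was the higher LTR in 5 of 6 libraries. The LTRs were 97.2% identical, and 23.4% and 50.8% of their stretches of 125 bases also occurred in another LTR5 element.

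Another provirus, on the minus strand of chromosome 1 from 155626666 to 155635845, lay within RP11-29H23.5, an annotated noncoding gene of the same strand. Its 3′ LTR had 44 reads or 45.1 TPM (CHLA 02), 4 and 7 reads or 5.52 and 6.5 TPM (CHLA 04), 2 reads or 2.27 TPM (CHLA 05), and 41 and 94 reads or 43.4 and 93.1 TPM (CHLA 06). Its 5′ LTR had 7, 1, 2, 3, 6 and 11 reads in that order of libraries, and the internal sequence had 436, 17, 30, 54, 537 and 1035. The 3 parts were all higher in CHLA 02 and CHLA 06 than in the other lines. In CHLA 02 and both libraries of CHLA 06, the 5′ LTR was the lowest part per length. The LTRs were 99.8% identical to each other, and 91.1% of the stretches of 125 bases of the 5′ LTR and 90% of those of the 3′ LTR were shared, so reads within them could belong to either LTR.

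The provirus on chromosome 22 from 18938674 to 18947848 was nearly confined to one line. Its 3′ LTR, which overlaps an exon of AC007326.1, had 81 reads (92.4 TPM) in CHLA 05, while the other 5 libraries had none. The internal sequence had 1092 reads in CHLA 05 and 6 to 16 elsewhere. The 5′ LTR had 4 reads in CHLA 05, and 1, 3, 0, 0 and 0 in the others. CHLA 05 was at least 29.9-fold higher than CHLA 02 at the 3′ LTR, where a line at 0 was set to 3 reads in each library. AC007326.1 itself was at 0.672 TPM of the gene scale in CHLA 05 and listed at 0 in the other libraries.

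In the provirus of ZNF585A on chromosome 19, a zinc finger gene of the same strand, the LTRs were only 87.1% identical. The 3′ LTR, chr19:37106647-37107600, stood at 11.4, 16.8, 8.48, 17.3, 2.15 and 5.02 TPM, and the 5′ LTR at 5.13, 0, 2.79, 1.14, 1.06 and 0 TPM, in the order CHLA 02, CHLA 04, CHLA 04, CHLA 05, CHLA 06 and CHLA 06. The 3′ LTR was above the 5′ LTR in all 6 libraries.

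**Figure D3:**
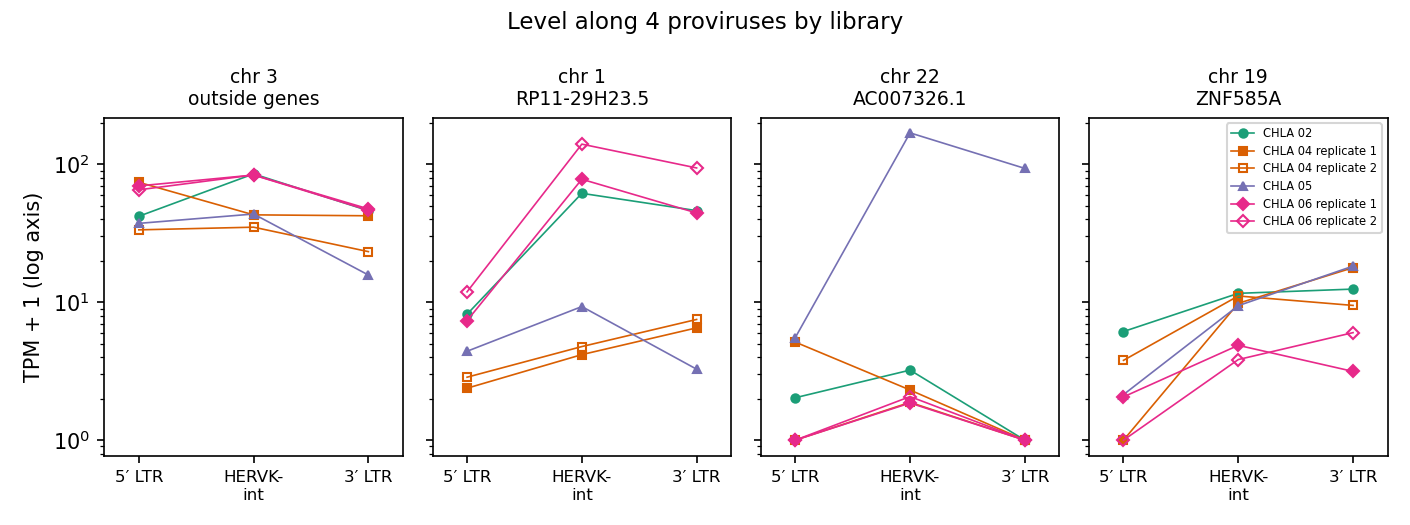
TPM + 1 (log axis) of the 5′ LTR, the HERVK-int sequence and the 3′ LTR of 4 proviruses, with 1 line per library. The provirus on chromosome 3 has all parts between 14.8 and 84.2 TPM in every library, that on chromosome 22 reaches 168 TPM in its internal part in CHLA 05 only, and those on chromosomes 1 and 19 are lowest at the 5′ LTR in most libraries.

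The other abundant proviral elements were 3′ LTRs without an upstream LTR5_Hs partner under the distance and strand rule. The element chr5:93456674-93457578 on the minus strand lies in an intron of NR2F1-AS1, the antisense neighbor of the developmental receptor gene NR2F1. It stood at 39.5 TPM (CHLA 02), 97.4 and 45.7 TPM (CHLA 04), 63.2 TPM (CHLA 05) and 5.66 and 11.7 TPM (CHLA 06). NR2F1-AS1 was at 53.7, 109, 70.2, 82.8, 10.2 and 9.23 TPM of the gene scale in the same order. Element and gene were both lowest in CHLA 06. The elements chr1:150634924-150635885 (26.2 to 56.4 TPM) and chr2:186521529-186522372 (17.4 to 60.7 TPM) were outside genes and had at least 11 reads in every library. In these 3 loci, 180 to 415 bp of HERVK-int were left on the strand of the element. Upstream of chr1:150634924-150635885 lie 1777 bp of HERVK-int on the minus strand. Beyond that is the 78 bp plus-strand solo element chr1:150632808-150632885. The 3′ LTR chr19:27637590-27638584, in an exon of CTB-151G24.1, had 7461 bp of HERVK-int beside it. It had 21 reads or 21.0 TPM (CHLA 02), 1 and 2 reads (CHLA 04), 1 read (CHLA 05) and none in either library of CHLA 06.

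The next comparison was between solo elements that lie in a gene of their own strand and those in a gene of the other strand. Solo elements in a gene of their strand averaged 14.1 TPM (CHLA 02), 15.1 ± 0.134 TPM (CHLA 04, SD, n = 2), 17.8 TPM (CHLA 05) and 13.9 ± 0.0872 TPM (CHLA 06, SD, n = 2). Those in a gene of the other strand averaged 0.382, 0.560 ± 0.0173, 1.09 and 0.601 ± 0.0397 TPM in the same order. The sense mean was the higher one in all 6 libraries, by 16.3 to 36.9 times. The log2 ratio averaged 4.63 ± 0.49 (SD, n = 4 cell lines), above 0 in 4 of 4 lines (two-sided exact sign-flip permutation test, p = 0.13, adjusted p = 0.188 over 3 tests). Solo elements outside genes lay between, at 1.91 to 2.51 TPM. A read in at least 1 library was found on 57 of 88 sense (64.8%), 46 of 145 antisense (31.7%) and 106 of 322 outside elements (32.9%). Without regard to orientation, the share was 16.3% over all LTR elements and 28.9% over those of 900 to 1000 bp. Shares by orientation were not counted for other LTR elements, so whether the sense excess is particular to LTR5_Hs was not tested. Among proviral elements the mean was 5.89 to 11.9 TPM in sense, 0.0954 to 0.222 TPM in antisense and 4.08 to 7.0 TPM outside genes. No antisense proviral element had 5 reads in any library. The kit marks strand, but whether strand was used in counting LTR elements is not given in the sources used here.

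**Figure D4:**
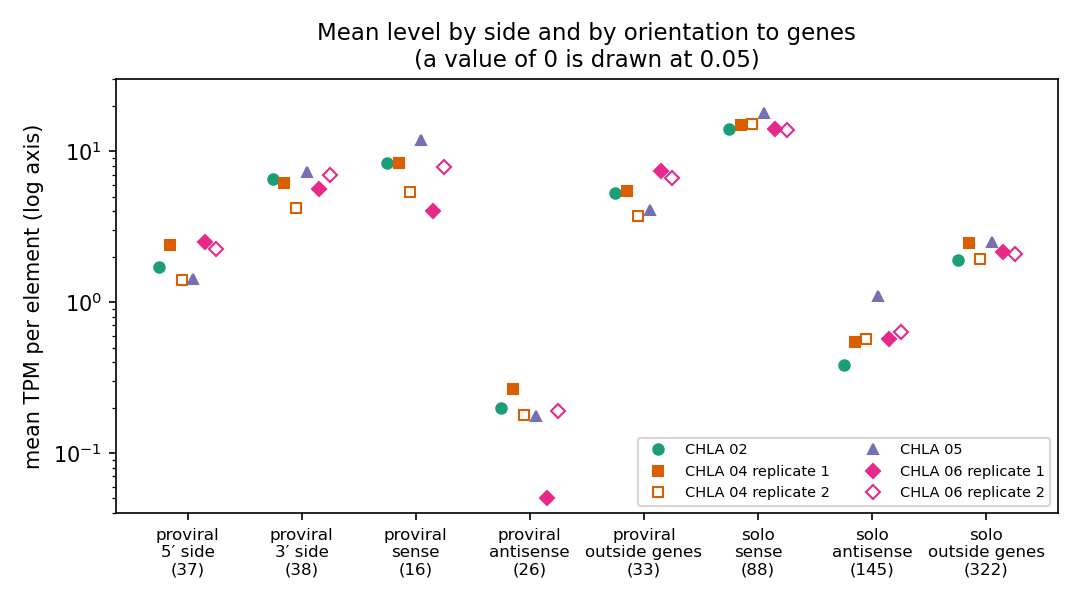
Mean TPM per element (log axis) in the 6 libraries, for proviral elements by their side of the internal sequence and for both classes by orientation to genes; the number of elements is under each label and open symbols are second technical replicates. The 3′ side is above the 5′ side in every library, and sense elements are above antisense elements in both classes.

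Host genes of sense solo elements with a read were mostly expressed, though not all. Of 53 genes, 37 were at 1 TPM or more on the gene scale (mean of the 4 lines) and 8 were listed at 0 in every library. Their median was 14.3 TPM (first quartile 0.547), against 0 TPM for the 30 host genes of the 31 sense solo elements without a read. For antisense solo elements the medians were 18.2 and 2.86 TPM. Host genes of other LTR elements were not counted in this way. Zinc finger genes (symbols ZNF or ZFP) held 13 sense solo elements, 11 of them with a read, beside 57 of all 88 sense solo elements. The 13 took 19.8% of all solo reads, and the ZNF808 element alone took 9.45%. The rule by symbol leaves out HKR1. The share over other LTR elements in such genes was not counted, so no trait of this gene family is shown. Many proteins of this family carry a KRAB domain, through which they recruit TRIM28 to silence retroelements.

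The highest LTR5_Hs element of all, chr19:52558697-52559661, is a solo element in introns of ZNF701 and ZNF808, both zinc finger genes of its strand. It stood at 178 TPM (CHLA 02), 155 and 188 TPM (CHLA 04), 175 TPM (CHLA 05) and 203 and 191 TPM (CHLA 06). The lines differed by no more than 1.15 times. It took 1024 of the 10836 solo reads (9.45%), shared none of its stretches of 125 bases with another LTR5 element, and its nearest relative was 92.3% identical.

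Of the next 9 solo elements by mean TPM, 7 lay in a gene of their strand. Elements in NBPF9, NBPF12 and NBPF15, genes of the neuroblastoma breakpoint family on chromosome 1, averaged 118, 68.7 and 59.1 TPM over the lines. The one in NBPF9, chr1:149092877-149093849, stood at 261 TPM in CHLA 05 and 37.1 to 99.5 TPM in the other libraries, and NBPF9 was at 108 TPM of the gene scale in CHLA 05 and 29.9 to 41.5 elsewhere. These elements were alike (98.8% to 99.2% identity to their nearest relative for NBPF9 and NBPF15, 97.5% for NBPF12), so reads may be split between them. The element chr6:99429371-99430327 in RP11-98I9.4, a noncoding gene, stood at 67.5, 78.1, 84.6, 91.9, 68.5 and 59.1 TPM, and it was the only one of the 10 apart from ZNF730 with a TATAAA match. In ZNF730 and HKR1, zinc finger genes on chromosome 19, the elements ranged from 40.1 to 100.03 and from 35.6 to 74.9 TPM. The element chr1:145414873-145415845, outside genes, stood at 48.0 TPM (CHLA 02), 46.7 and 51.7 TPM (CHLA 04), 119 TPM (CHLA 05) and 114 and 103.45 TPM (CHLA 06). It was higher in CHLA 05 and CHLA 06 than in the other lines by more than the technical replicates differed. It was 99.2% identical to the element in NBPF9, and 53.9% of its stretches of 125 bases were shared, so reads may be split between them as well.

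**Figure D5:**
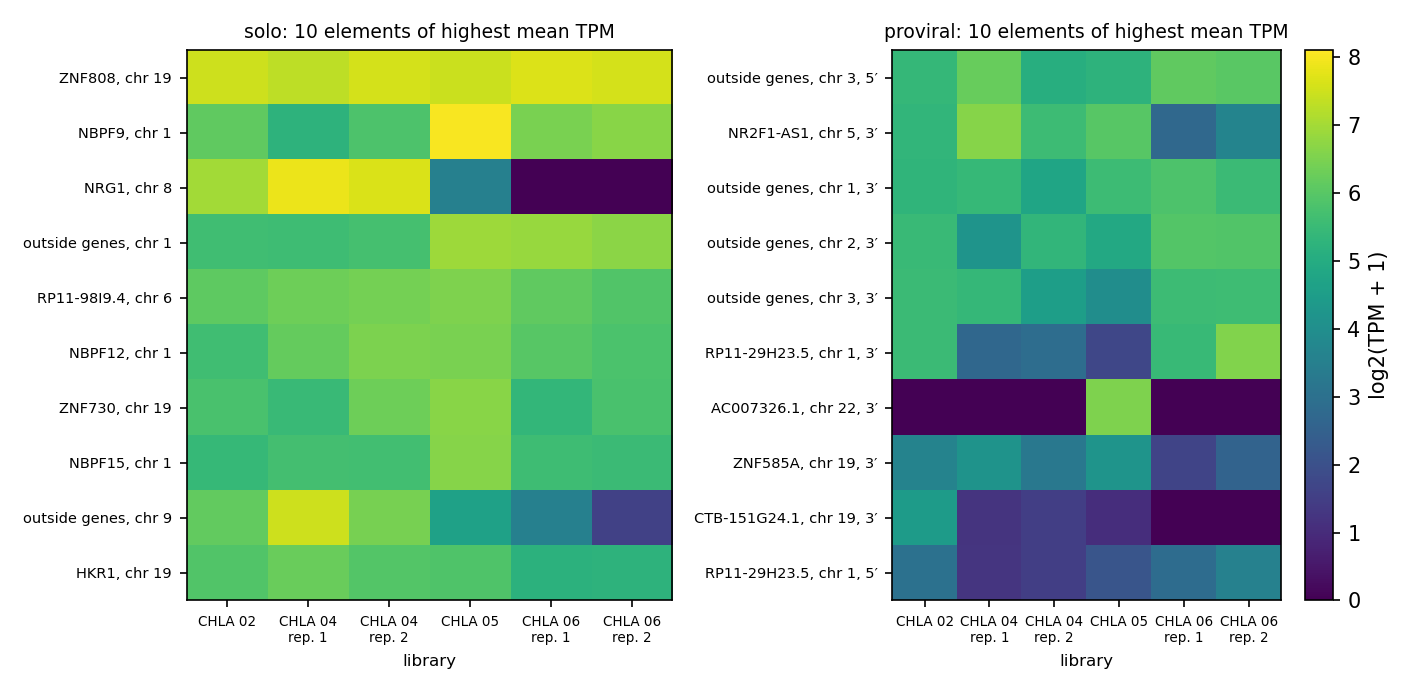
log2(TPM + 1) in the 6 libraries (columns) of the 10 solo and the 10 proviral elements with the highest mean TPM (rows, named by host gene and chromosome, with the side for proviral elements). The ZNF808 element is even across libraries, while the NRG1 and AC007326.1 elements are at 0 in some lines.

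Differences between lines were looked at in elements with at least 10 reads in every library of a line. Of the 56 solo elements that passed, 24 (42.9%) differed at least 4-fold between the highest and the lowest line, where a low value was set to the level of 3 reads. Of 9 proviral elements, 5 did (55.6%). Over all LTR elements the share was 50.6% (8220 of 16240), so both shares were near the background. With 1 biological sample per line these are differences between samples and no test was made. The 24 solo elements were highest in CHLA 05 (10), CHLA 04 (7), CHLA 06 (6) or CHLA 02 (1), and the 5 proviral elements in CHLA 05 (2) or 1 each in the other lines.

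Among solo elements, the one in TPTE2P6, chr13:24591593-24592530, had the largest difference. It had 107 reads or 113 TPM (CHLA 02), none in either library of CHLA 04, 2 reads or 2.34 TPM (CHLA 05), and 56 and 93 reads or 61.2 and 95.04 TPM (CHLA 06). CHLA 02 was at least 31.7-fold higher than CHLA 04. TPTE2P6, a pseudogene, was at 34.1 TPM (CHLA 02) and 21.3 and 34.1 TPM (CHLA 06) on the gene scale and listed at 0 elsewhere. The 207 bp element chr8:32093047-32093253 in NRG1, the gene of the growth factor neuregulin 1, had 26 reads or 125 TPM (CHLA 02), 36 and 46 reads or 232 and 199.8 TPM (CHLA 04), 2 reads (CHLA 05) and none in CHLA 06. It was at least 15-fold higher in CHLA 04 than in CHLA 06. NRG1 was at 143, 384, 325, 52.4, 0.468 and 0.305 TPM of the gene scale, in the same order of lines. On chromosome 9, chr9:66036608-66037582 stood at 70.3, 178, 85.8, 23.7, 10.5 and 1.97 TPM and chr9:64478771-64479744 at 42.8, 26.1, 20.3, 71.1, 1.05 and 0 TPM, both lowest in CHLA 06. Both lay outside genes and had near copies (99.9% and 99.4% identity), with 95.9% and 54.7% of their stretches shared, so their reads are uncertain in place. The element chr1:161016835-161017804, antisense within F11R, had 43 reads in CHLA 05 (48.7 TPM) and 0 in every other library.

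In genes of their strand, varying elements were mostly highest in the line where the gene was highest. This held for 8 of 10 solo elements (80.0%) and 3 of 5 proviral elements (60.0%). Of 5184 varying LTR elements of all families in such genes, it held for 81.4%, which is near the share of the solo elements.

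Annotated transcripts with an exon in a member were few. On the strand of the element, 10 solo and 7 proviral elements overlapped exons of 13 and 10 transcripts. In solo elements 6 transcripts started and 3 ended, and in proviral elements 2 started and 7 ended. The following were named after their values had been seen. A transcript of CFLAR, which encodes the apoptosis inhibitor c-FLIP, ends in the solo element chr2:201139002-201139967. On the gene scale the transcript was at 5.89 TPM (CHLA 02), 10.7 and 9.42 TPM (CHLA 04), 21.5 TPM (CHLA 05) and 6.79 and 8.17 TPM (CHLA 06). The element stood at 17.5, 35.9, 38.2, 115, 33.9 and 39.7 TPM in that order, so both were highest in CHLA 05. Of TIMM50, a subunit of the mitochondrial import machinery, 2 transcripts start in the solo element chr19:39479462-39480441, which had 7 reads over all libraries and at most 3.36 TPM. One of these transcripts was listed at 3.85 to 5.57 TPM in the 6 libraries and the other at 1.16 to 2.08 TPM. In the proviral class, 2 transcripts of PCAT14, a noncoding gene, start in the 5′ LTR chr22:23536062-23537026. PCAT14 was at 3.23, 0, 0.418, 0, 19.6 and 27.4 TPM of the gene scale in that order, highest in CHLA 06. The LTR had 1, 0, 1, 0, 5 and 4 reads. The HERVK-int sequence from 23538730 to 23546576 downstream of it had 173, 0, 5, 4, 1159 and 1567 reads.

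Elements of at least 900 bp were also split by motif. Solo elements with TATAAA more often had a read than those without (45.2% of 263 against 31.3% of 201), yet their mean was lower, at 1.93 to 2.74 against 4.78 to 7.13 TPM over the lines. The ZNF808 element and the elements of NBPF9, NBPF12 and NBPF15 have no TATAAA. Solo elements with the E-box averaged 2.95 TPM (CHLA 02), 3.59 ± 0.0842 TPM (CHLA 04, SD, n = 2), 5.41 TPM (CHLA 05) and 3.42 ± 0.116 TPM (CHLA 06, SD, n = 2). Those without it averaged 3.83, 3.25 ± 0.326, 3.42 and 3.5 ± 0.117 TPM. Proviral elements with the E-box (45) averaged 4.87 to 6.34 TPM over the lines and those without it (17) 0.273 to 0.483 TPM. A read was found on 48.9% and 47.1% of them. Since 8 elements held 90% of all proviral reads, these means rest on few elements. Both LTRs of the chromosome 3 provirus, with 290 and 201 reads over the libraries, have the E-box. The length limit left out the 844 bp element chr2:186521529-186522372, which has no E-box and stood at 17.4 to 60.7 TPM. It also left out the 781 bp elements in ENPP7P4, which have the E-box and stood at 0 to 10.4 TPM. Proviral elements with TATAAA (49) averaged 2.11 to 3.94 TPM and those without it (13) 5.23 to 9.79 TPM. No split by motif was tested.

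Factors known to act on HML-2 LTRs were read from the gene tables, on the gene scale. MYC, which binds the E-box, was at 79.7 TPM (CHLA 02), 0.612 and 0.937 TPM (CHLA 04), 1.44 TPM (CHLA 05) and 94.1 and 72.1 TPM (CHLA 06). Elements that were at least 4-fold higher in both CHLA 02 and CHLA 06 than in both other lines, a rule set after these values were seen, were 3 of 65 LTR5_Hs elements that passed the read minimum (4.62%) and 4.73% of all such LTR elements. They were the chromosome 1 3′ LTR and the TPTE2P6 element above and a solo element in RP4-717I23.3. The TPTE2P6 element has no CACGTG match, and other forms of the E-box were not searched. Of the pluripotency and trophoblast factors, POU5F1 was listed at 0 except for 0.194 TPM in CHLA 05, and SOX2, TFAP2C and KLF4 were highest in CHLA 05, at 4.03, 8.50 and 69.3 TPM, with 0.0204 to 2.57 TPM on average in the other lines. SOX15 and GATA3 did not exceed 1.3 TPM in any library and MITF did not exceed 6.13 TPM. The general factors SP1, SP3 and YY1 averaged 82.9 to 144, 75.8 to 139 and 59.5 to 70.6 TPM. Of the silencing factors, TRIM28 averaged 234 to 440, SETDB1 48.8 to 87.6, DNMT1 170 to 344 and ATRX 191 to 229 TPM. TRIM28 was lowest in CHLA 02 and highest in CHLA 04. DNMT1 was highest in CHLA 04, and its 170 TPM in CHLA 02 lay between the CHLA 06 replicates (155 and 197 TPM). SMARCB1 averaged 13.5 to 24.2 TPM, while the study describes these lines as without SMARCB1 expression. RNA values do not show whether protein was present. The part of these factors in the levels of LTR5_Hs elements was not tested.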

How the data were processed

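Total RNA was sequenced from a stranded kit with paired ends of 125 bases. Per the labels and the study's methods, the authors used Trimmomatic for trimming and the CLCbio Genomics Workbench at default settings for mapping to GRCh38 (Ensembl release 82), and they deposited TPM per transcript and, from a separate mapping, TPM per RepeatMasker LTR element. CASAVA 1.8.2 and FastQC are also named in the submitters' processing notes, and no version of the CLCbio program is given in the sources used here. The LTR values are rounded to 2 decimals and cannot be compared with gene values.

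Reads were recovered by dividing TPM times length by its smallest step, and at least 99.99% of values above 0 were within 0.05 of a whole number. On simulated data all reads were recovered. Gene TPM was the sum over transcripts, and a host gene was one whose span overlaps an element. Sequences came from GRCh38 at the deposited coordinates. Scripts used Python 3.11.15, pandas 2.3.3, scipy 1.17.1, pysam 0.24.0 and edlib 1.3.9.

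Technical replicates were averaged to 1 value per line. Ratios of class means within libraries were tested over the 4 lines with two-sided exact sign-flip permutation tests, adjusted over 3 tests by the Benjamini-Hochberg method. Named were the 10 elements of each class with the highest mean TPM, the 5 with the most reads, the 5 called with the largest fold, their proviral partners and host genes, and a list of regulators. Members, lists and rules were chosen with earlier results of these data known. Levels of the 17 members on chromosome Y are not given singly. Alternatives were other distances, either strand, TPM times length, a minimum of 900 bp, elements outside genes, omission of the most read elements, other read minimums and folds, and omission of each technical replicate or line.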

Additional observations from a re-analysis of the deposited data

Results flagged for a closer look

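The proviral to solo ratio had opposite signs in different cell lines. Its log2 value was 0.27 in CHLA 02 and 0.28 in CHLA 06, where every library was above 0, and -0.06 in CHLA 05, whose single library was below 0. In CHLA 04 one library lay on each side. The difference between lines was not tested, since each line was 1 biological sample, and in CHLA 04 the technical replicates of 1 sample differed by as much.

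In proviruses with an LTR5_Hs element on both sides, the log2 ratio of 5′ to 3′ level was 0.13 in CHLA 04, where both libraries were above 0, and -0.89 in CHLA 02, -1.46 in CHLA 05 and -0.71 in CHLA 06, where every library was below 0. This difference between lines was not tested either. The CHLA 04 value rests largely on the 5′ LTR of the chromosome 3 provirus, which held 53 of 64 and 35 of 54 reads of all 5′ elements there.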

How the results depend on the processing

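The log2 ratio of proviral to solo elements (0.10) ranged from -0.01 to 1.24 over 17 alternatives, was below 0 only without the most read element of each class (-0.01) and could not pass the threshold in any, since 4 lines allow no smaller exact p than 0.13. It was 0.03 to 0.15 when a technical replicate was left out and 0.04 to 0.17 when a line was left out. The 5′ to 3′ ratio stayed below 0 (-3.31 to -0.73) in its 7 alternatives and the sense to antisense ratio above 0 (4.48 to 5.10) in its 6. The proviral share of reads stayed between 12.2% and 15.2%. With at least 5 reads, the shares of elements with a read were 14.2% (solo) and 18.7% (proviral). With a technical replicate left out they were 35.1% to 35.3% and 41.3% to 45.3%. A 2-fold limit raised the varying elements from 29 to 44, and 28 to 34 were called without a technical replicate. The distance and strand rules gave 70 to 83 proviral elements. No paired analysis was possible because the replicate numbers name technical replicates of one line and pair no samples across lines. The tests set classes against each other within each line.

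Precision is limited by depth: 1 read on 1000 bp was worth up to 1.34 TPM, and most members had no read. LTRs that share long stretches cannot be told apart by reads, the lines had no biological replicates, and elements that overlap transcripts were counted without knowing where the transcript began.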
